A study of Mus musculus with 6 samples.

Results

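The IL-6 family of cytokines was followed through 10 genes of the 55011 in the count table, all of which were found by symbol. They are the cytokines Il6, Il11, Lif and Clcf1, the receptor chains Il6st, Il6ra, Il11ra1, Lifr and Osmr, and the feedback inhibitor Socs3. RNA was counted in 6 libraries of cultured stromal cells from mouse visceral fat, the connective-tissue cells that include the precursors of adipocytes, and all of them came from cells negative for an EGFP reporter of Il33. The cells were kept for 3 days with 10 nM irisin/HSP90α (irisin, n = 3) or with phosphate-buffered saline (PBS, n = 3), and irisin against PBS is the only comparison. Irisin is a hormone released from the membrane protein FNDC5, and HSP90α is a protein chaperone. The labels do not say whether the PBS wells held HSP90α, nor whether replicates were separate animals or cultures, so the p-values below rest on a spread that may be technical. The sources used here give no age or strain of the mice.

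Cytokines of this family signal through receptor complexes that share the chain gp130, the product of Il6st. IL-6 and IL-11 first bind their own receptor chains, IL6RA and IL11RA1, which then engage gp130. LIF, CLCF1 and oncostatin M act through complexes of gp130 with LIFR or OSMR. The complexes activate JAK kinases and the transcription factor STAT3, and STAT3 induces SOCS3, which binds gp130 and its kinases and stops the signal. Stromal cells of fat are a known source of IL-6.

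Total counts per library were 5360724 to 6588363 with irisin and 5271309 to 6745799 with PBS. On the next principal component after treatment (23.9% of variance), irisin replicate 1 and PBS replicate 3 stood apart from the other 4 libraries, and for the 10 genes and the lists below, calls that changed without PBS replicate 3 or without both are given. The stromal label was checked against marker genes, in CPM (counts scaled to library size). Collagen genes led the stromal list (summed level 51219 to 56096 CPM with irisin and 37745 to 45284 CPM with PBS). Within it Pdgfra, a receptor of fibroblasts, rose (LFC, the log2 fold change of irisin against PBS, 0.60), as did Col1a1 (0.49). The surface protein genes Cd34 (-1.40) and Thy1 (-1.30) and the matrix gene Lum (-0.76) fell. The remaining 5 did not pass, among them the surface protein gene Ly6a (LFC 0.04, adjusted p = 0.9375). Col1a1 did not pass without irisin replicate 2 or 3 (adjusted p 0.0985 and 0.0725). The list had 4 rises and 4 falls without PBS replicate 3, and 5 and 4 without both outlying libraries. Ptprc, which encodes the pan-leukocyte protein CD45, averaged 0.171 CPM with irisin and 0.312 CPM with PBS, and C1qa and Cd3e had no count in any library. Of the other leukocyte markers, Lyz2 was counted 43, 22 and 111 times with irisin and 45, 40 and 63 times with PBS. Lyz2 was highest in replicate 3 of both groups and did not pass (LFC 0.26 ± 0.52, adjusted p = 0.876). Adgre1 had 10 counts in irisin replicate 3, 8 in PBS replicate 3 and 0 elsewhere. The 11 leukocyte markers summed to 62.4 to 86.9 CPM with irisin and 66.7 to 82.1 CPM with PBS, most of it from Csf1r (59.2 ± 5.16 and 59.7 ± 5.54 CPM, SD, n = 3 each), which shares 873 exon bases with a gene on the opposite strand. Endothelial markers summed to 19.9 to 27.0 CPM with irisin and 31.1 to 38.2 CPM with PBS, most of it from Tek. Tek fell (LFC -0.59, adjusted p = 0.0303, or 0.0653 to 0.143 without irisin replicate 2 or 3 or PBS replicate 1 or 2). Vwf went the other way, with 5, 8 and 8 counts with irisin and 0, 2 and 0 with PBS, too few to be tested. The rest had at most 6 counts a library. With no low-count filter 1 endothelial marker passed as higher and 1 as lower. Mesothelial markers summed to 44.1 to 54.0 CPM with irisin and 37.2 to 42.9 CPM with PBS, most of it from Wt1.

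Of the 9 genes tested, Il6, Osmr and Socs3 were higher with irisin, none was lower and 6 did not pass an adjusted p of 0.05. Among all 12296 genes tested, 4.20% were called higher and 3.22% lower, 7.42% in all. These shares are also the background for every list count as reported, and other fits have a share only where one is given. Il11 had too few counts to be tested. Without adjustment, edgeR gave p under 0.05 for 5 higher and 0 lower genes of the 9, against 9.27% higher and 8.91% lower among all genes. DESeq2 and limma-voom also called 0 of the 9 lower. With PBS replicate 3 left out, 5 were called higher and 1 lower, against 5.60% and 4.65% of all genes. Limma-voom called 5 higher, against 5.73% of all genes higher and 5.07% lower. The median LFC was 0.24 over these 9 genes and -0.01 over all genes tested. Irisin and PBS libraries did not overlap in 4 of the 9, which were these 3 and Il6st, against 23.6% of all genes tested. Levels below are CPM scaled by TMM factors, LFC is given ± standard error, and p-values of edgeR's quasi-likelihood test were adjusted by Benjamini-Hochberg over all genes tested.

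**Figure D1:**
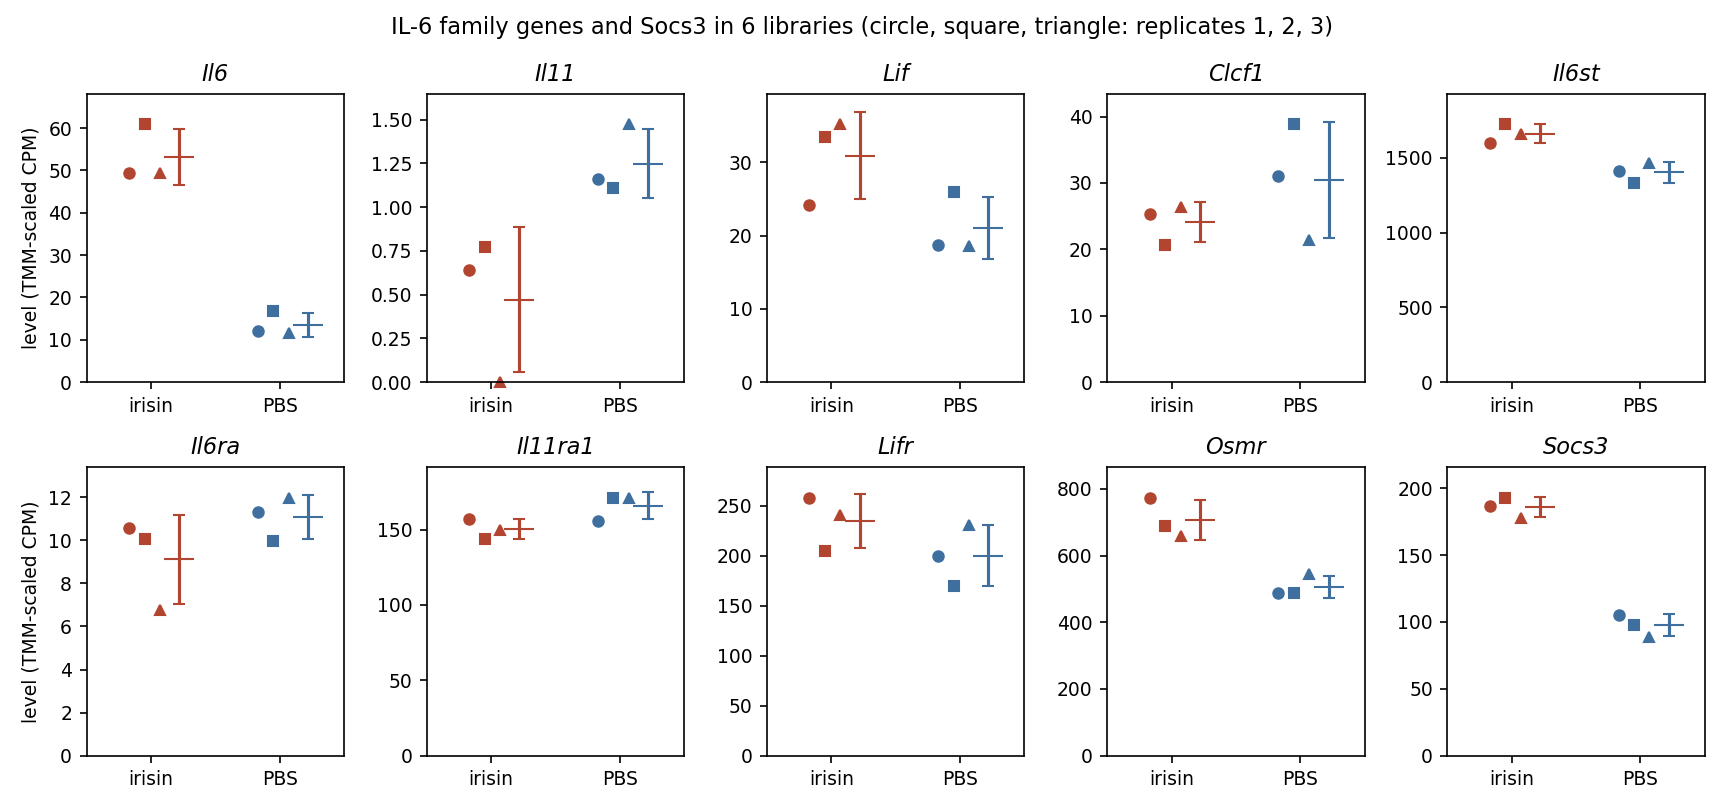
Level of each gene (CPM, linear axes from 0) in the 3 irisin and 3 PBS libraries, with a bar for the mean and SD of each group. Il6, Il6st, Osmr and Socs3 show no overlap between the groups, nor does the untested Il11, which rests on at most 8 counts a library, and in the remaining genes the groups overlap.

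Il6 encodes the inflammatory cytokine after which the family is named. Its levels were 49.4, 60.9 and 49.5 CPM in irisin replicates 1, 2 and 3, against 12.2, 16.8 and 11.6 CPM in PBS replicates 1, 2 and 3. Every irisin library lay above every PBS library, and replicate 2 was the highest of its group in both. The means were 53.3 ± 6.59 CPM with irisin and 13.5 ± 2.85 CPM with PBS (SD, n = 3 each), a 3.92-fold rise (LFC 1.97 ± 0.16, adjusted p = 4.72e-06). The counts behind these levels were 309, 315 and 315 with irisin and 84, 106 and 63 with PBS. Over the 16 alternative fits the LFC ran from 1.87 to 2.16 and Il6 passed in each.

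Adipocyte genes moved the other way in the same libraries. Of 8 adipocyte markers, 7 were tested and all 7 fell (median LFC -2.25), while Lep had no count in any library. Their summed level was 148 to 203 CPM with irisin and 656 to 1116 CPM with PBS. Plin1, Cidec and Adrb3, genes of lipid storage and its release, had LFCs of -1.71, -2.84 and -2.61. Cidec rested on 3 to 8 counts a library with irisin and 28 to 56 with PBS. Adrb3 rested on 15 to 24 counts with irisin and 83 to 218 with PBS. Adipoq, the gene of adiponectin, averaged 9.84 ± 1.11 CPM with irisin and 40.9 ± 10.4 CPM with PBS. Of these 7, 5 passed without PBS replicate 3, where Cfd (adjusted p = 0.11) and Car3 (0.0553) did not, and the same pair did not pass without both outlying libraries (0.231 and 0.144) or with no low-count filter (0.0891 and 0.0646). Cfd also did not pass with limma-voom (0.0716) or without irisin replicate 2 (0.0857), nor Car3 with the replicate block (0.0667). In bulk RNA, fewer cells of a type and less RNA per cell cannot be told apart, and the part of adipocyte, endothelial and stromal marker changes in the levels of Il6, Osmr and Socs3 was not tested.

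The region upstream of the start site of Il6 and that of Socs3 are shown because these genes had the largest called changes among the 10. RefSeq promoters (build GRCm38.p6, 250 bases before to 50 after a start site) matched 9 of the 10 genes, all but Clcf1. They were searched on both strands for an NF-κB motif (GGGA, any 2 bases, TTCC), an AP-1 motif (TGANTCA) and a STAT motif (TTCNNNGAA), which do not overlap in these windows. The sequences run 5′ to 3′ on the gene's strand, outside annotated exons, with motif matches in capitals. The Il6 stretch is chr5:30012864-30013113 on the plus strand, positions -250 to -1 from the RefSeq start site. The Socs3 stretch is chr11:117969452-117969616 on the minus strand, positions -250 to -86, and the bases nearer its RefSeq start site are not printed. It lies between exons inside the annotated span of Socs3 (117966079 to 117970047), so that span reaches further upstream.
Il6: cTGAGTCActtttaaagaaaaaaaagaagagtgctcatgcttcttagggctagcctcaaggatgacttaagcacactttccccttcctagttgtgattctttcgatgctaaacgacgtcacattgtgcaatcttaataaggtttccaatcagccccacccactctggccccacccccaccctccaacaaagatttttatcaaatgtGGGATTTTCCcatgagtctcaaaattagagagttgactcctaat
Socs3: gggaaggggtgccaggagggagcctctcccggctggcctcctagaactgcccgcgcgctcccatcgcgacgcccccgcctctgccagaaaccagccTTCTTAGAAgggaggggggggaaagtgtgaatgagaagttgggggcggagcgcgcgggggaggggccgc

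The Il6 window held the NF-κB letters at position -44 from the start site and the AP-1 letters at -249. The Socs3 window held the STAT letters at -154. Of all 32851 promoters in the table, 1.47% held the NF-κB letters, 7.81% the AP-1 letters and 8.3% the STAT letters. AP-1 letters were also found in the windows of Lif (-228), of 1 of the Il11 promoters (-98) and of Osmr (position 3, inside an annotated exon and not printed). A match is a run of letters and does not show that a factor binds there.

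Lif encodes leukaemia inhibitory factor, which acts on LIFR with gp130. It had 24.2, 33.4 and 35.2 CPM in the irisin libraries and 18.7, 26.0 and 18.6 CPM in the PBS libraries. Irisin replicate 1 lay below PBS replicate 2, so the groups overlapped. The means were 30.9 ± 5.93 CPM with irisin and 21.1 ± 4.23 CPM with PBS (SD, n = 3 each), and Lif did not pass (LFC 0.55 ± 0.18, adjusted p = 0.0976). It passed as higher without irisin replicate 1 (adjusted p = 0.0329) or PBS replicate 2 (0.0481), with limma-voom (0.0348), with no low-count filter (0.0227) and without both irisin replicate 1 and PBS replicate 3 (0.00383).

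Clcf1 encodes cardiotrophin-like cytokine factor 1, which acts through LIFR and gp130. It had 25.3, 20.7 and 26.4 CPM with irisin and 31.1, 38.8 and 21.4 CPM with PBS. PBS replicate 3 fell among the irisin values, and the difference did not pass (LFC -0.34 ± 0.20, adjusted p = 0.424). Without PBS replicate 3 Clcf1 passed as lower (LFC -0.52, adjusted p = 0.0331), as it did without both PBS replicate 3 and irisin replicate 1 (-0.55, 0.0108). With PBS replicate 2 left out its LFC was only -0.12 (adjusted p = 0.838).

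Il11 encodes interleukin-11, another ligand that signals through gp130. It was counted 4, 4 and 0 times in irisin replicates 1, 2 and 3, against 8, 7 and 8 times in the PBS libraries, or 8 counts in all with irisin and 23 with PBS. The groups did not overlap, at counts too low for a test. A count of 0 in irisin replicate 3 allows up to 0.471 CPM (3 counts, counting error only). With no low-count filter its LFC was -1.42 ± 0.74 (adjusted p = 0.555). The remaining cytokines of the family were hardly counted. Osm, the gene of oncostatin M, had no count in any library, which allows up to 0.471 to 0.58 CPM per irisin library and 0.435 to 0.552 CPM per PBS library. Cntf, Ctf1, Ctf2, Il27, Ebi3 and Il31 had 0 to 2 counts per library. Of the 3 ligand genes tested in a list of 11 (Il6, Lif and Clcf1, median LFC 0.55), 1 rose. None passed as lower with edgeR, DESeq2 or limma-voom (0 each, and 0 at an unadjusted p under 0.05), against 1 when PBS replicate 3 was left out. Without both outlying libraries 2 rose and 1 fell.

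The balance among the cytokines was read from counts of 2 genes in the same library, a ratio that needs no scaling, is not per length and is read only between libraries. The ratio of Il6 to Lif counts was 2.05, 1.82 and 1.41 in irisin replicates 1, 2 and 3, against 0.651, 0.646 and 0.624 in the PBS libraries. The ratio of Il6 to Clcf1 counts was 1.96, 2.94 and 1.88 with irisin and 0.393, 0.433 and 0.543 with PBS. The ratio of Lif to Clcf1 counts was 0.956, 1.62 and 1.33 with irisin and 0.603, 0.669 and 0.871 with PBS. Every irisin ratio lay above every PBS ratio in these pairs. The exact two-sided permutation test gave p = 0.1 for each of these ratios, the smallest that 3 against 3 allows, or 0.14 adjusted over the 7 ratios computed, so the design cannot reach 0.05 for such a ratio. Ratios were chosen after the counts were seen.

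Il6st encodes gp130, the shared signal chain. It had 1600.1, 1722 and 1660.3 CPM with irisin and 1413, 1329 and 1466 CPM with PBS. Each irisin library lay above each PBS library, though the step was small, 1661 ± 61.1 against 1403 ± 69.3 CPM (SD, n = 3 each). It did not pass (LFC 0.24 ± 0.08, adjusted p = 0.102). It passed as higher without PBS replicate 3 (adjusted p = 0.0148), with limma-voom (0.00755) and without both irisin replicate 1 and PBS replicate 3 (5.41e-06). Scaled by total counts alone, its LFC was 0.17.

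Osmr encodes the chain that pairs with gp130 to receive oncostatin M. It had 773, 689.9 and 657 CPM with irisin and 487, 487 and 544 CPM with PBS. The groups did not overlap. The means were 707 ± 59.5 CPM with irisin and 506 ± 33.0 CPM with PBS (SD, n = 3 each), a 1.40-fold rise (LFC 0.48 ± 0.09, adjusted p = 0.00421). Osmr passed in all 16 alternative fits, with an adjusted p of at most 0.0379 and an LFC of 0.40 to 0.54. Osmr counts per Il6st count were 0.483, 0.401 and 0.396 with irisin and 0.345, 0.366 and 0.371 with PBS (exact two-sided permutation test, p = 0.1, the smallest possible, 0.14 adjusted over 7 ratios).

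Lifr encodes the receptor chain for LIF and, with CNTFR, for CLCF1. It had 258, 205 and 241 CPM with irisin and 199.8, 169.7 and 231 CPM with PBS. The groups overlapped and it did not pass (LFC 0.23 ± 0.12, adjusted p = 0.345). Without PBS replicate 3 it passed as higher (LFC 0.35, adjusted p = 0.0427), but not without both PBS replicate 3 and irisin replicate 1 (0.28, 0.0564). With PBS replicate 2 left out its LFC was only 0.13 (adjusted p = 0.705). The count ratio of Lifr to Il6st averaged 0.142 ± 0.0212 with irisin and 0.142 ± 0.0148 with PBS (SD, n = 3 each), with overlapping libraries. The count ratio of Osmr to Lifr was 3.00, 3.36 and 2.73 with irisin and 2.44, 2.87 and 2.36 with PBS, also overlapping (exact two-sided permutation test, p = 0.2, or 0.233 adjusted over 7 ratios).

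Il6ra and Il11ra1 encode the chains that give gp130 its specificity for IL-6 and IL-11. Il6ra had 10.6, 10.0 and 6.76 CPM with irisin and 11.3, 9.98 and 12.0 CPM with PBS, on 43 to 66 and 63 to 78 counts a library. It did not pass (LFC -0.28 ± 0.21, adjusted p = 0.563). Irisin replicate 3 was the lowest, and without it the LFC was -0.10. Il6ra counts per Il6st count were 0.0066, 0.00583 and 0.00407 with irisin and 0.00801, 0.00751 and 0.00816 with PBS (exact two-sided permutation test, p = 0.1, the smallest possible, 0.14 adjusted over 7 ratios). Il11ra1 had 157, 144 and 149.7 CPM with irisin and 156, 171 and 171 CPM with PBS, and did not pass (LFC -0.14 ± 0.09, adjusted p = 0.448).

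Il11ra1 has close copies in the mouse genome, and 46.3% of the 50-base runs of its annotated transcripts also occur in those of Gm13305 or Il11ra2. These were counted 0 to 1 and 0 to 2 times per library, and how shared reads were counted is not given in the sources used here. Among other receptors of the family, Il27ra averaged 18.8 ± 3.42 CPM with irisin and 13.99 ± 3.51 CPM with PBS and did not pass (LFC 0.44 ± 0.20, adjusted p = 0.279). Il27ra passed as higher without PBS replicate 3 (adjusted p = 0.0374). Cntfr, the gene of the ciliary neurotrophic factor receptor, was counted 16, 10 and 10 times with irisin and 6, 3 and 1 times with PBS, too few to be tested (LFC 1.88 with no low-count filter, adjusted p = 0.0654, and 0.0591 to 0.18 in the other fits that kept it). Il31ra had 14 counts in each group. Of 6 receptor genes tested in a list of 9 (median LFC 0.24), 1 rose, or 4 without PBS replicate 3 and 2 without both outlying libraries.

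**Figure D2:**
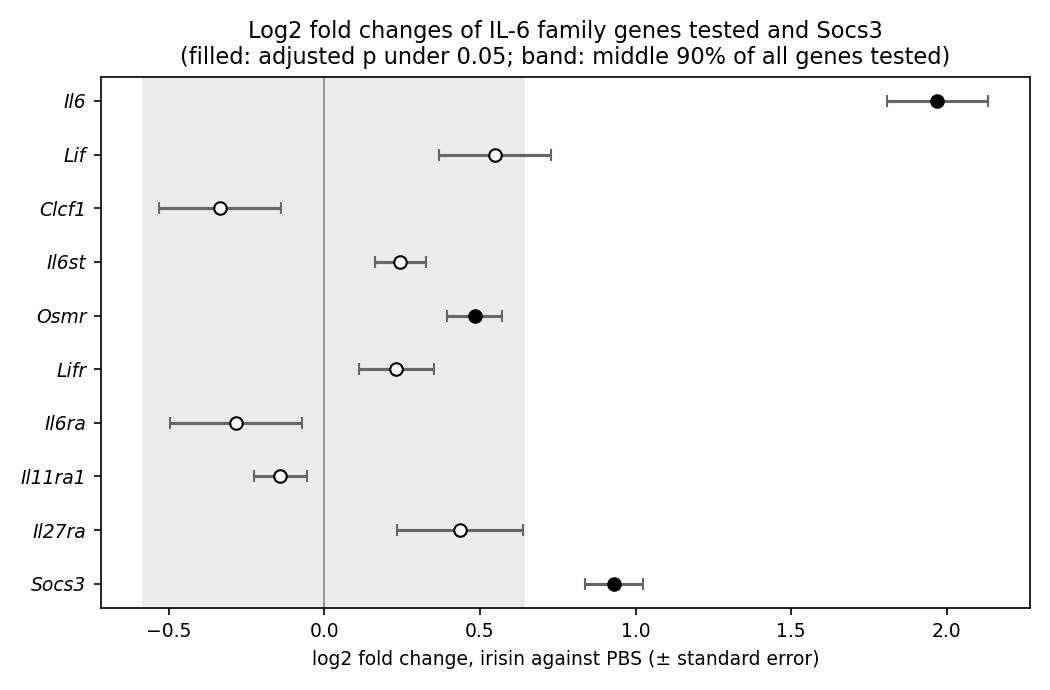
LFC of irisin against PBS (points) ± standard error for the tested cytokine genes, receptor genes and Socs3, with filled points for an adjusted p under 0.05. The grey band spans the middle 90% of all genes tested, from -0.58 to 0.64, and Il6 and Socs3 lie above it while the called Osmr lies inside it.

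Socs3 encodes the inhibitor that STAT3 induces and that silences gp130. It had 187, 193 and 178 CPM with irisin and 105, 97.8 and 88.9 CPM with PBS. The lowest irisin library stood well above the highest PBS library. The means were 186 ± 7.39 CPM with irisin and 97.4 ± 8.23 CPM with PBS (SD, n = 3 each), a 1.91-fold rise (LFC 0.93 ± 0.09, adjusted p = 2.23e-05). Over the 16 alternative fits the LFC was 0.85 to 0.99 and Socs3 passed in each. Its relative Socs2, best known as an inhibitor of growth hormone signalling, averaged 64.3 ± 4.14 CPM with irisin and 107 ± 15.8 CPM with PBS and fell (LFC -0.73 ± 0.12, adjusted p = 0.00138). Of the 14 tested genes for SOCS, PIAS and phosphatase inhibitors of this pathway, Socs3 was the rise and Socs2 the fall, and 12 did not pass (median LFC -0.08). Without PBS replicate 3 the falls numbered 2, with Socs4 (adjusted p = 0.0173) as the other. Without both outlying libraries 2 rose and 2 fell, with Ptpn1 (0.0244) as the other rise, and limma-voom gave the same counts.

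The order of levels among the 10 genes was set per kilobase of annotated exons. With irisin it was led by Il6st (149.6 ± 5.51 CPM per kb), Socs3 (64.3 ± 2.56), Osmr (58.3 ± 4.91) and Il11ra1 (33.6 ± 1.49). Il6 (21.9 ± 2.71) and Lifr (21.8 ± 2.5) followed, then Lif (7.11 ± 1.36), Clcf1 (6.34 ± 0.796), Il6ra (1.06 ± 0.239) and Il11 (0.226 ± 0.199). The library ranges of Socs3 and Osmr overlapped, as did those of Il6 and Lifr and those of Lif and Clcf1. With PBS the order was Il6st (126 ± 6.24 CPM per kb), Osmr (41.8 ± 2.72), Il11ra1 (37.1 ± 1.97), Socs3 (33.7 ± 2.85), Lifr (18.6 ± 2.83), Clcf1 (7.99 ± 2.3), Il6 (5.57 ± 1.17), Lif (4.85 ± 0.973), Il6ra (1.28 ± 0.117) and Il11 (0.6 ± 0.0945). Here the ranges of Il11ra1 and Socs3, of Clcf1 and Il6, and of Il6 and Lif overlapped.

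The levels per length depend on the length taken. With the longest transcript in place of all exons, Osmr came to 129 ± 10.8 CPM per kb with irisin and 92.1 ± 6.0 with PBS and stood above Socs3 (72.8 ± 2.89 and 38.1 ± 3.22). Lifr (24.3 ± 2.79) then stood before Il6 (22.7 ± 2.81) with irisin, still with overlapping ranges. The specific chain Il6ra stayed far below Il6st on both lengths.

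**Figure D3:**
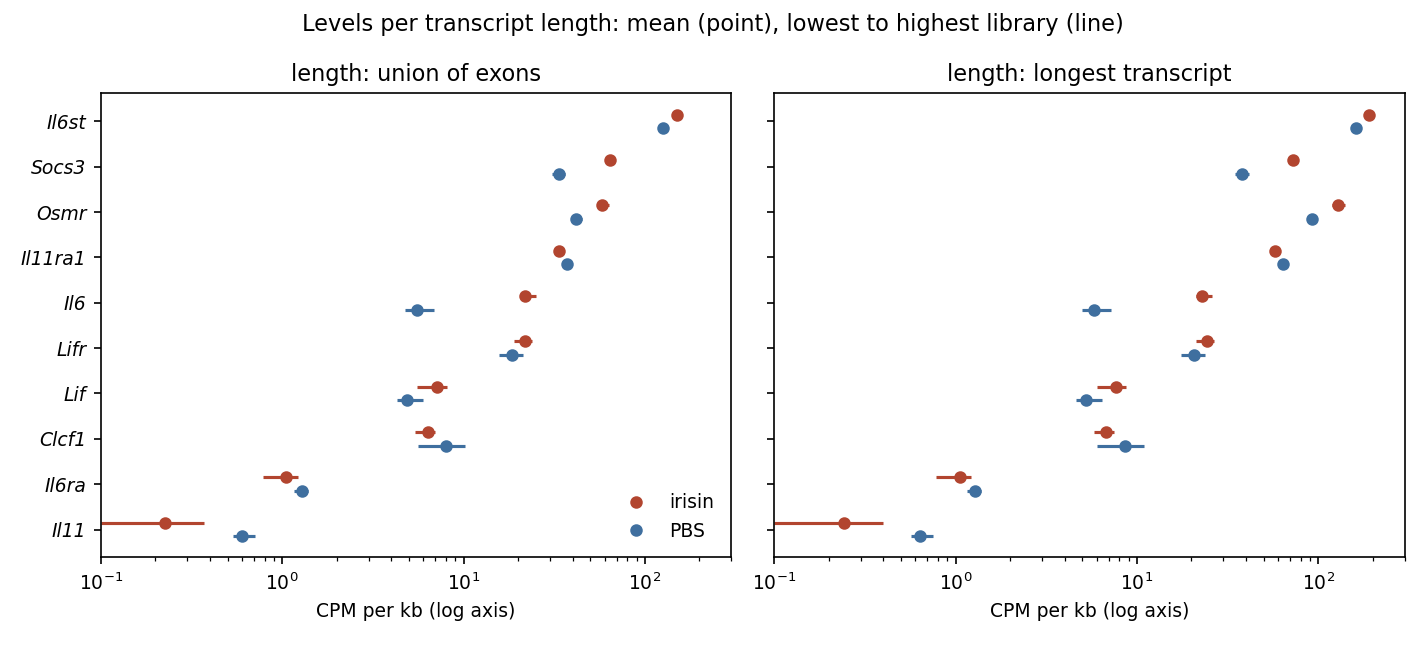
Level per kilobase (CPM per kb, log axis) with irisin and PBS for 2 gene lengths, the union of annotated exons and the longest annotated transcript, with points for means and lines from the lowest to the highest library. The line of Il11 with irisin runs to the edge because 1 library had no count. Il6st leads in every panel and group, and Il6 lies above Clcf1 with irisin and overlaps it with PBS.

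Downstream of gp130, of 12 JAK, STAT and adaptor genes tested, only Jak2, one of the kinases bound to gp130, passed the test (median LFC of the 12, 0.06, or -0.02 with total counts alone). Jak2 averaged 72.5 ± 2.24 CPM with irisin and 40.5 ± 5.48 CPM with PBS (LFC 0.84 ± 0.12, adjusted p = 0.00041). Stat3 averaged 572 ± 33.8 CPM with irisin and 478 ± 25 CPM with PBS and did not pass (LFC 0.26 ± 0.08, adjusted p = 0.0862). It passed as higher without PBS replicate 3 (0.0124), with limma-voom (0.0193) and without both outlying libraries (0.000475). Jak1 had an LFC of 0.04 ± 0.08 (adjusted p = 0.896). In the 3 fits where Stat3 passed, the adaptor gene Gab2 passed as lower (0.000679 to 0.00843), which made 2 rises and 1 fall. As reported, edgeR called 0 lower (DESeq2 0, and 2 at an unadjusted p under 0.05), but Gab2 also passed as lower with total counts alone (0.0202) and no low-count filter (0.0352).

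Of 26 tested genes reported as STAT3 targets, 11 rose, 5 fell and 10 did not pass (median LFC 0.44, against -0.01 for all genes tested). Among all genes tested, 4.20% were called higher and 3.22% lower. The list holds Socs3 and Osmr, and without these it had 9 rises and 5 falls among 24 genes. The list was drawn up with earlier results of these data known, and many of its genes also answer to other factors. The rises of lowest p were Saa3, an acute-phase protein, Hp, the haemoglobin binder haptoglobin, Lcn2, an iron-carrier binding protein, and Hif1a, a factor of the low-oxygen response. Hif1a averaged 463 ± 22.4 CPM with irisin and 229 ± 13.5 CPM with PBS (LFC 1.01 ± 0.08, adjusted p = 4.92e-06) and shares 148 exon bases with a gene on its strand and 330 with one on the other. Saa3 averaged 9349 ± 602 CPM with irisin and 105 ± 13.0 CPM with PBS (LFC 6.47, adjusted p = 8.89e-12), and the LFC was 4.75 for Lcn2 and 2.02 for Hp. The falls of lowest p included Fgl2, a secreted fibrinogen-like protein (17.6 ± 0.995 CPM with irisin and 47.0 ± 4.46 CPM with PBS, adjusted p = 1.17e-05), and Pim3, a survival kinase (LFC -1.14 ± 0.14, adjusted p = 0.000225). Ccn1, a matricellular protein (LFC -0.40 ± 0.08, adjusted p = 0.00832), and Fos, an AP-1 subunit (LFC -1.13 ± 0.29, adjusted p = 0.0398), fell as well. Ccn1 did not pass when irisin replicate 2 or 3 was left out (adjusted p 0.0812 and 0.0647) and with the replicate block (0.0558). Neither did Fos without irisin replicate 1 or 3 or PBS replicate 1 or 2 (0.138 to 0.159), nor with a count minimum of 50 (0.0501). The falls numbered 3 without PBS replicate 1 or 2 or irisin replicate 2 and with the replicate block, and 2 without irisin replicate 3. The list had 11 rises and 6 falls without PBS replicate 3, and 13 and 6 without both outlying libraries. Its rises dropped to 9 under the replicate block, to 9 when PBS replicate 1 or irisin replicate 3 was removed, and to 10 in several other fits. Among them, Irf1 (adjusted p = 0.0398) lost its call under total counts alone, no robust dispersion or the block (0.0541 to 0.0969). Removing any 1 library except irisin replicate 2 did the same (0.0555 to 0.209). Timp1 failed under the block and on removing PBS replicate 1, irisin replicate 2 or irisin replicate 3 (0.0528 to 0.0858).

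Genes that control Il6 transcription or the life of its mRNA included rises. Of 13 tested (median LFC 0.17), 5 rose and 0 fell as reported (0 fell with DESeq2, 2 with limma-voom and 2 at an unadjusted p under 0.05). With total counts alone 4 rose and 2 fell. Zc3h12a encodes Regnase-1, a nuclease that degrades Il6 mRNA, and averaged 34.2 ± 2.1 CPM with irisin and 7.28 ± 0.571 CPM with PBS (LFC 2.23 ± 0.15, adjusted p = 8.86e-07). Nfkbiz encodes IκBζ, a nuclear co-activator of Il6 transcription, and averaged 59.0 ± 2.93 CPM with irisin and 20.3 ± 1.46 CPM with PBS (LFC 1.54 ± 0.12, adjusted p = 2.41e-06). Zfp36l1, an mRNA decay factor (LFC 0.51 ± 0.11, adjusted p = 0.0132), and Nfkb1, an NF-κB subunit (LFC 0.54 ± 0.13, adjusted p = 0.0234), rose less. Zfp36l1 lost its call without irisin replicate 3 (adjusted p = 0.08) and shares 1672 exon bases with a gene on the opposite strand. Nfkb1 lost it without irisin replicate 2 or 3 or PBS replicate 1 or 2 (0.0508 to 0.146). The remaining rise was Arid5a (LFC 0.39 ± 0.11, adjusted p = 0.0476). Arid5a lost its call with DESeq2, total counts alone, no low-count filter or the replicate block (0.103 to 0.13). It also did when any library but PBS replicate 3 was left out (0.104 to 0.188). Leaving out PBS replicate 3, or both outlying libraries, gave 5 rises and 2 falls. The rises numbered 3 without PBS replicate 1 or 2 or irisin replicate 2, and 2 without irisin replicate 3.

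Receptor shedding releases soluble IL6RA. Of 6 genes for the proteases and their partners, Timp3, an inhibitor of the shedding protease ADAM17, fell to 35.3 ± 0.0965 CPM with irisin, against 76.2 ± 13.7 CPM with PBS (LFC -1.11 ± 0.14, adjusted p = 0.000138). Without both outlying libraries and with no low-count filter, Rhbdf2 passed as higher (0.00312 and 0.00232). Timp3 shares 1733 exon bases with a gene on the opposite strand. Adam17 itself averaged 272 ± 5.98 CPM with irisin and 246 ± 11.2 CPM with PBS and did not pass (LFC 0.14 ± 0.08, adjusted p = 0.394).

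**Figure D4:**
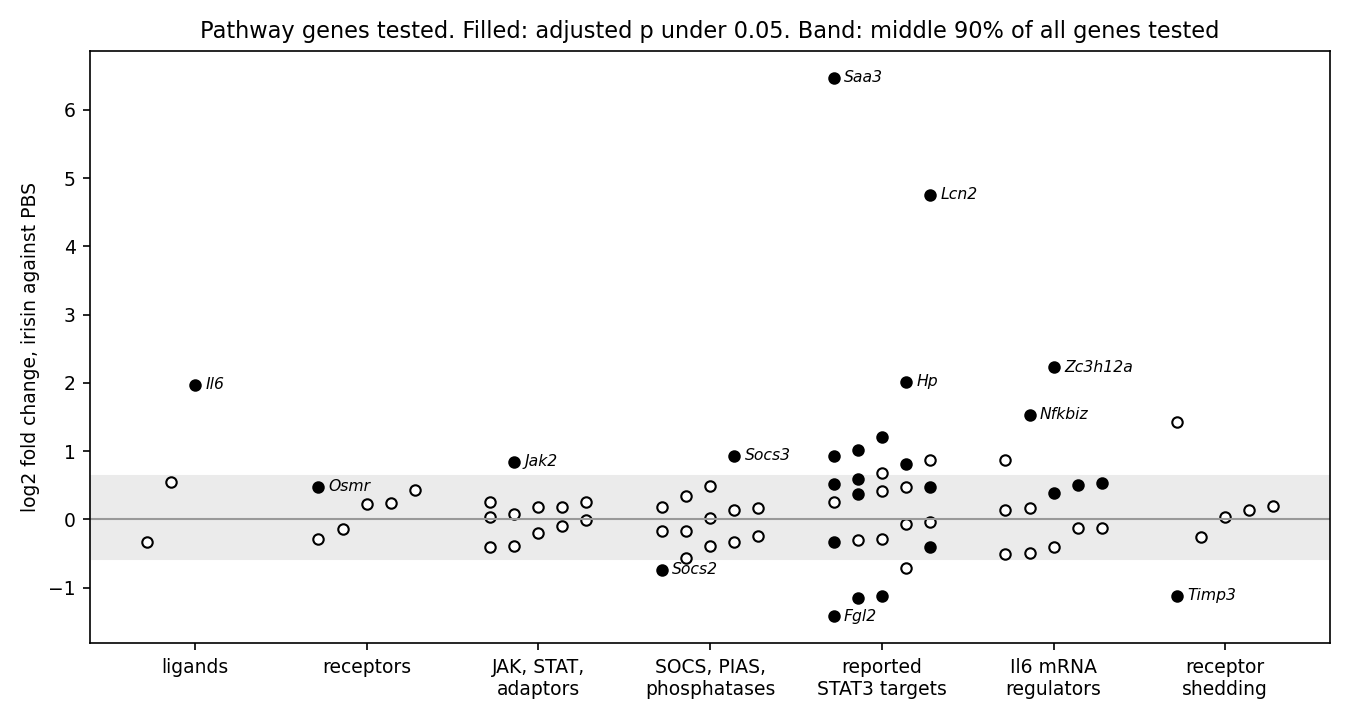
LFC of irisin against PBS for every tested gene of 7 lists (points, filled for an adjusted p under 0.05), from ligands and receptors to regulators of Il6 mRNA, over a grey band for the middle 90% of all genes tested. Kinases, STATs and adaptors lie inside the band except Jak2, and the reported STAT3 targets spread from -1.42 to 6.47.

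By Pearson correlation of log2 CPM over the 6 libraries, the genes most like Il6 among 8807 others with a mean of at least 10 CPM were Slc39a13, a zinc transporter (r = 0.9997), the metallothionein Mt1 (0.9987), Igf2bp2 (0.9975), Kalrn (0.9962) and the lactate exporter Slc16a3 (0.996). The genes most like Socs3 were Spsb1 (r = 0.9991), the interleukin-4 receptor gene Il4ra (0.9986), Gm18787 (0.998), Ecscr (0.9977) and Nid2 (0.9971). These r values are a description over 6 points that share treatment and library, and 450 genes exceeded r = 0.9 with Il6 and 462 with Socs3. Il4ra averaged 734 ± 19.5 CPM with irisin and 419.5 ± 25.2 CPM with PBS (LFC 0.81 ± 0.08, adjusted p = 2.54e-05) and shares 571 exon bases with a gene on the opposite strand.

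Coordinates are those of GENCODE M21 on GRCm38 (mm10), in which all 10 genes are protein-coding. Il6 lies on chromosome 5 from 30013114 to 30019981, Il11 on chromosome 7 from 4772373 to 4782859, Lif on chromosome 11 from 4257557 to 4272514 and Clcf1 on chromosome 19 from 4214238 to 4223490. Il6st lies on chromosome 13 from 112464070 to 112510086, Il6ra on chromosome 3 from 89864059 to 89913196 and Il11ra1 on chromosome 4 from 41699989 to 41769474. Osmr (6813577 to 6874969) and Lifr (7090614 to 7197489) both lie on chromosome 15, and Socs3 lies on chromosome 11 from 117966079 to 117970047. Clcf1 shares 311 exon bases with a gene on its strand, Il6ra 242 and Il11ra1 8 with a gene on the opposite strand, and the rest share none. Counts are sums over whole genes, and whether counting used strand is not given in the sources used here.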

How the data were processed

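Reads of polyadenylated RNA, prepared per the labels' protocols by the ultra-low-input procedure of the Immunological Genome Project, were handled with STAR 2.7.3a and featureCounts on mm10, per the submitters' processing notes. The deposited table holds raw counts, 1 whole number per gene symbol and library. Annotation, strand and multi-mapping settings of the authors are unknown here. Columns were matched to groups by sample title.

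From these counts, edgeR 4.0.16 in R 4.3.3 applied filterByExpr (count minimum 10), TMM scaling (factors 0.969 to 1.034) and the quasi-likelihood test with robust dispersion, irisin against PBS. The standard error is the LFC divided by the root of its F statistic. 1 CPM stood for 5.17 to 6.89 counts, and floors cover counting error only. The members and lists were chosen with earlier results of these data known. Named are all 10 members, the other family genes, in each other list up to 4 called genes per direction by lowest p, and the 5 genes most like Il6 and Socs3. Added after their values were seen were Stat3, Jak1, Gab2, Adam17, Rhbdf2, Socs4, Ptpn1, Irf1, Timp1 and Arid5a. So were Cfd, Car3, Lep, Csf1r, Ptprc, C1qa, Cd3e, Lyz2, Adgre1, Ly6a, Vwf and Wt1. Some genes of the lists are not reported here, and list counts leave them out. Alternatives were other scalings, DESeq2 1.42.0, limma-voom (limma 3.58.1, sample quality weights), other filters, no robust dispersion, an adjusted p of 0.1, a replicate block, each library left out, and another gene length. Leaving out irisin replicate 1 and PBS replicate 3 together was chosen after seeing the data. Each library was counted as 1 sample. Pairs of libraries within a group differed by more than sampling noise (chi-square over its degrees of freedom 2.74 to 14.8). That spread does not show whether replicates were separate animals or cultures. On simulated data the edgeR test recovered 34.7% of 1.5-fold, 74% of 2-fold, 94% of 4-fold and 100% of 8-fold changes. Some 2-fold and 4-fold changes were thus missed, so a gene that did not pass may still have changed. The rates cover genes drawn from all those tested, not the 10 genes alone.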

Additional observations from a re-analysis of the deposited data

How the results depend on the processing

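The rises of Il6, Osmr and Socs3 kept their direction and stayed past the threshold in all 16 alternative fits. No gene of the 10 changed direction in any fit run. The number of the 10 genes called higher was 3 as reported, 5 with limma-voom, 5 without both irisin replicate 1 and PBS replicate 3, and 3 to 5 with each library left out in turn. The number called lower was 0 as reported, 1 without both of those libraries, and 0 to 1 with each library left out. The cause was not tested. Among all genes, 912 were called, 1680 without both libraries, 1327 with limma-voom, and 589 to 1290 with each library left out. The fits without irisin replicate 2 (589), irisin replicate 3 (596) or PBS replicate 1 (605), or without both outlying libraries (1680), moved that count by over 1.5 times.

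The labels do not say whether replicate numbers pair the libraries. Deviations of same-numbered libraries from their group means correlated at -0.238, 0.164 and -0.177. Those of irisin replicate 1 and PBS replicate 3 correlated at 0.36. Deviations from a mean of 3 libraries are tied to each other, so these values cannot settle pairing. With the replicate block 691 genes were called, again with 3 of the 10 higher (Il6 LFC 1.98, adjusted p = 2.04e-05) and 0 lower. With the longest transcript as gene length, 6 of the 10 genes kept their rank with irisin. Depth limits Il11 (at most 8 counts a library) and Cntfr (at most 16).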
